A study of Mus musculus with 18 samples.

Results

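The genes described here code for the proteins of the cytosolic ribosome. They were chosen by annotated symbol, as Rps or Rpl followed by a number and an optional a or x, with Rplp0, Rplp1, Rplp2 and Rpsa, and without pseudogenes, Rps6 kinases and -like genes. Of 18193 genes with a probe set annotated to 1 gene alone, 42 met this rule, 20 of the small and 22 of the large ribosomal subunit. They had 94 of the 34945 such probe sets, and the set with the highest mean signal across the 18 arrays stood for each gene. Of the 76 symbols of this form in RefSeq, a further 27 stood only on probe sets shared with other annotated genes, among them Rpl3, Rpl5, Rpl10 and Rplp1, and 7 stood on neither kind. The 110 shared probe sets were used as a check.

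The study compared side population (SP) cells with the remaining, non-SP cells of 3 mouse lung carcinoma lines, A2C12, betaD5 and cRAF_cMYC. SP cells are sorted by their low content of the DNA dye Hoechst, which transporters of the ABC family export. Per the labels, all 3 lines arose by spontaneous transformation from lung tumours of 8-month-old mice carrying both a c-myc and a c-raf transgene, and all were grown in the same serum-containing medium, so that no group lacked the transgenes. The promoter of each transgene and the number of mice behind a line are not given in the sources used here. Line and fraction gave 6 groups of 3 arrays each, numbered 1 to 3, and the study was done in triplicate without a statement that the replicates were separate cultures or sorts.

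Ribosomal proteins are built with ribosomal RNA into the small subunit, which reads the mRNA, and the large subunit, which joins amino acids. Their mRNAs are among the most abundant of a growing cell, and many begin with a run of pyrimidines, the terminal oligopyrimidine (TOP) tract, through which the kinase mTOR and the RNA-binding protein Larp1 control their translation. The transcription factor Myc, an oncogene product in these mice, raises the output of ribosomal protein genes and of ribosomal RNA.

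All 7 stromal markers examined were above the filter on low signals, with Vim and Col1a2 at a mean log2 signal of 14.25 and 13.86. Of 6 epithelial markers 4 were above it, with Krt19 at 11.26 and Epcam at 8.88, but of the lung epithelial markers Nkx2-1, Sftpc and Scgb1a1 were below it and Sftpb alone was above. Of 5 leukocyte markers 3 were above it, Cd68 (7.38), Cd3e (7.16) and Lyz2 (6.74), while Ptprc (3.91) and Cd79a (5.82) were below. Of 3 endothelial markers 1 was above it, Kdr at 7.19. The filter used the mean over all 18 arrays, with a cut of 6.53, and does not speak for each line. In A2C12 Thy1 (5.33), Krt18 (6.44) and Lyz2 (6.37) averaged under this cut, and in betaD5 Nkx2-1 (6.76) averaged over it. The deposited arrays had median log2 signals between 5.80 and 6.72. Both arrays of pair betaD5 1 correlated over genes more closely with arrays labelled cRAF_cMYC (up to 0.983) than with other betaD5 arrays (up to 0.925), and both arrays of pair cRAF_cMYC 3 more closely with arrays labelled betaD5 (up to 0.988) than with other cRAF_cMYC arrays (up to 0.930). Lines are therefore named as labelled. The counts of called members over the whole list, the median SP differences and the values of Rpl12 and Rps25 are also given without these pairs. Most other line differences of single genes, and those of the subunits and the other gene lists, are given with these pairs only.

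RefSeq promoter windows of GRCm38.p6 were matched by symbol for 37 of the 42 members, in 43 windows of 300 bases. They were searched on both strands for short motifs, and read for a run of C and T through the annotated start. The motif CCGGAAG, the form bound by ETS factors such as GABP, was in 41.9% of the members' windows and in 8.9% of all 32851 windows. A run of at least 5 C or T through the start stood in 30.2% of the members' windows and in 10.1% of all windows, and a C at the start together with such a run in 18.6% and 5.6%. CTTTCC was in 46.5% against 26.6%, AAGATGG, a YY1-type motif, in 16.3% against 6.3%, GGGCGG in 53.5% against 35.7%, and CACGTG, the E-box that Myc can bind, in 11.6% against 7.2%. TATAAA was in 11.6% of the members' windows and in 13.6% of all. The motifs were counted separately, and CTTTCC can lie within a run of C and T. Windows of 80 bases, 60 before and 20 from the annotated start on, are shown for 4 members chosen because they hold the run and for the 2 members whose arrays departed most from the rest. Most members' windows lack the run, and CCGGAAG was in 18.6% of the members' windows of 80 bases, so the examples show the features and not a contrast between members that move together and those that do not. Rps10 and Rpl38 held both the run and CCGGAAG, and Rps18 and Rpl35 held the run. Rpl12 and Rps25 are those treated below for their departure, and neither run nor motif was marked in their 80 bases. The windows lie at chr17:27635225-27635304 (minus strand) for Rps10, chr11:114668520-114668599 (plus) for Rpl38, chr17:33955646-33955725 (minus) for Rps18, chr2:39005112-39005191 (minus) for Rpl35, chr2:32961652-32961731 (plus) for Rpl12 and chr9:44407654-44407733 (plus) for Rps25. Capitals mark the run through the start and each CCGGAAG.
Rps10: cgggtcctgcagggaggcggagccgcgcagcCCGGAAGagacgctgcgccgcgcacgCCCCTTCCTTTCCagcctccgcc
Rpl38: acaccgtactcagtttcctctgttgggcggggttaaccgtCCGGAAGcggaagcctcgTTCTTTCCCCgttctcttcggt
Rps18: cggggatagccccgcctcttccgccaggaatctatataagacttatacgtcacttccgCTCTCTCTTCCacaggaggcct
Rpl35: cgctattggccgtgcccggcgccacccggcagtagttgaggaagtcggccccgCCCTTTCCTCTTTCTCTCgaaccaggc
Rpl12: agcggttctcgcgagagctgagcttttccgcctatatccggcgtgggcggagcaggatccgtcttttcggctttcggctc
Rps25: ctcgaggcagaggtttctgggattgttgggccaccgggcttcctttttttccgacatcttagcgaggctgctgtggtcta
These are sequences of the annotation, and a match in them describes the letters only.

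The probe sets of 33 members had a mean log2 signal above 13, as did those of 1.56% of all genes. The highest member signal was 15.27 and the highest signal of any probe set 15.28, so that these 33 sets lay near the top of the scale. These signals cannot be compared between genes as amounts of mRNA. The other 9 members were Rpl37, Rps25, Rps6, Rpl12, Rpl14, Rpl27a, Rps27 and Rpl39, with means between 7.12 and 11.85, and Rps16. The set annotated to Rps16 alone had a mean of 4.47 and fell below the filter, while both sets it shares with other annotated genes had means of 14.24 and 14.64. Thus 41 of the 42 members were tested.

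The 33 bright members moved together over the arrays. Their SD over the 18 arrays was 0.18 to 0.40 on the log2 scale, with a median of 0.28. After each array's median over all 42 members was subtracted, the SD was 0.06 to 0.17, with a median of 0.08. That median holds these same members, so a fall of the SD is built in where arrays differ in level. The member median also followed the median of all probe sets of an array (r 0.87). Whether other bright genes moved with them was not tested. The smallest SDs before subtraction were those of Rpl37a (0.18), Rpl10a (0.21) and Rplp2 (0.22), all proteins of the large subunit. The largest among all 42 were those of Rps25 (1.31), Rpl12 (0.85) and Rpl39 (0.55), all from sets outside the bright 33.

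The member median of each array was 13.99, 14.08 and 14.09 in the non-SP arrays 1 to 3 of A2C12 and 14.00, 14.05 and 14.09 in its SP arrays. It was 14.76, 14.49 and 14.45 in the non-SP arrays of betaD5 and 14.70, 14.50 and 14.51 in its SP arrays. In cRAF_cMYC it was 14.14, 14.62 and 14.48 in the non-SP and 14.15, 14.62 and 14.45 in the SP arrays. The arrays of a pair were thus close to each other, A2C12 was lowest in both fractions, and cRAF_cMYC 1 lay between A2C12 and the rest. The median of all probe sets of an array was also low in A2C12 and in cRAF_cMYC 1, at 5.80 to 6.06, against 6.33 to 6.72 in the other arrays.

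**Figure D1:**
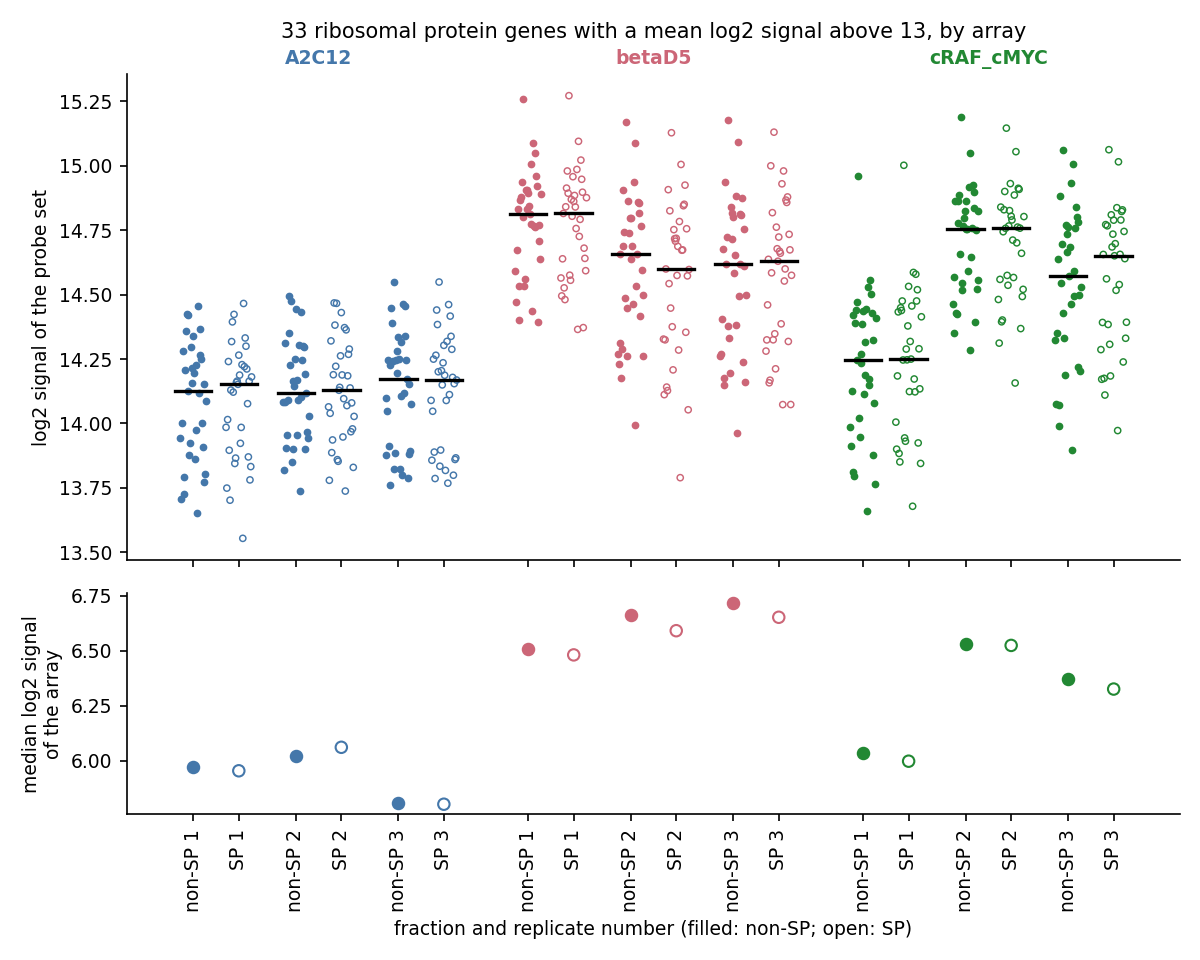
Log2 signal of the 33 members with a mean above 13 on each of the 18 arrays (upper panel, points are genes, lines are their median) and the median log2 signal of all probe sets of the same array (lower panel). Both are low in the 6 A2C12 arrays and in pair cRAF_cMYC 1, and filled non-SP and open SP arrays of a pair stand at nearly the same height.

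The first question of the study is how SP cells differ from non-SP cells, and for the ribosomal protein genes no difference passed the test. In A2C12, betaD5, cRAF_cMYC and the mean of the 3 lines, 0 of 41 members were called by limma at a Benjamini-Hochberg adjusted p under 0.05, where the share of all 10916 genes called was 0% in each comparison. At an unadjusted p under 0.05 the members numbered 0, 1, 0 and 1 in these comparisons, and all genes 1, 14, 18 and 36. In bulk samples such as these, fewer cells of a type and less RNA per cell cannot be told apart. With the replicate number as a block, which compares the fractions within each pair, the call counts were again 0, although unadjusted p values under 0.05 were then had by 1.71%, 11.9%, 8.24% and 13.2% of all genes and by 0, 2, 1 and 1 members.

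The size of the difference was small for nearly every member. The median SP minus non-SP difference was -0.007 (log2) in A2C12, where 13 of 41 members lay above 0, -0.005 in betaD5 (18 of 41) and 0.013 in cRAF_cMYC (26 of 41). Over all genes these medians were -0.005, 0.032 and 0.012. Without pairs betaD5 1 and cRAF_cMYC 3 the members' medians were -0.002 in betaD5 and 0.010 in cRAF_cMYC, again with 0 calls. By pair the member median lay between -0.037 (betaD5 2) and 0.026 (cRAF_cMYC 3), and no line had all of its pairs on the same side of 0 except A2C12, at -0.006, -0.010 and -0.005.

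Among the 33 bright members there were 297 differences between the fractions of a pair, and they ran from -0.21 to 0.14. Of these, 295 lay within 0.2 of 0, which is a change of 1.15-fold. The mean over the 9 pairs ran from -0.04 for Rpl7a to 0.04 for Rps20. The paired 95% interval for the mean of the 3 lines lay wholly within 0.2 of 0 for 38 of 41 members, and the members for which it did not were Rpl12, Rpl14 and Rps25. Within 1 line it did so for 33, 32 and 33 of 41. Without the block the intervals were wider, with a median half-width of 0.32 in 1 line against 0.10 with it, so the narrow bounds rest on the pairing. They are bounds on the signal: these 33 sets lay near the top of the scale, and how far their signal follows the RNA there was not tested.

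Rplp0, the base of the stalk that recruits elongation factors, shows the usual pattern. Its log2 signals in non-SP arrays 1 to 3 were 14.16, 14.25 and 14.28 in A2C12, 14.91, 14.80 and 14.82 in betaD5, and 14.38, 14.82 and 14.74 in cRAF_cMYC. In the SP arrays they were 14.15, 14.26 and 14.24, then 14.96, 14.71 and 14.63, then 14.38, 14.93 and 14.73. The fractions overlapped in every line. Rps6, the small-subunit protein phosphorylated by S6 kinase downstream of mTOR, differed by 0.13 (SE 0.20, limma adjusted p = 1.0) in A2C12, 0.11 in betaD5 and -0.05 in cRAF_cMYC. Rpl7a, a large-subunit protein, differed by -0.07, -0.08 and 0.02. Rps14 differed by 0.02, 0.01 and -0.01, and Rpsa, also known as the laminin receptor precursor, by 0.06, 0.05 and -0.05. None of these differences passed the test.

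**Figure D2:**
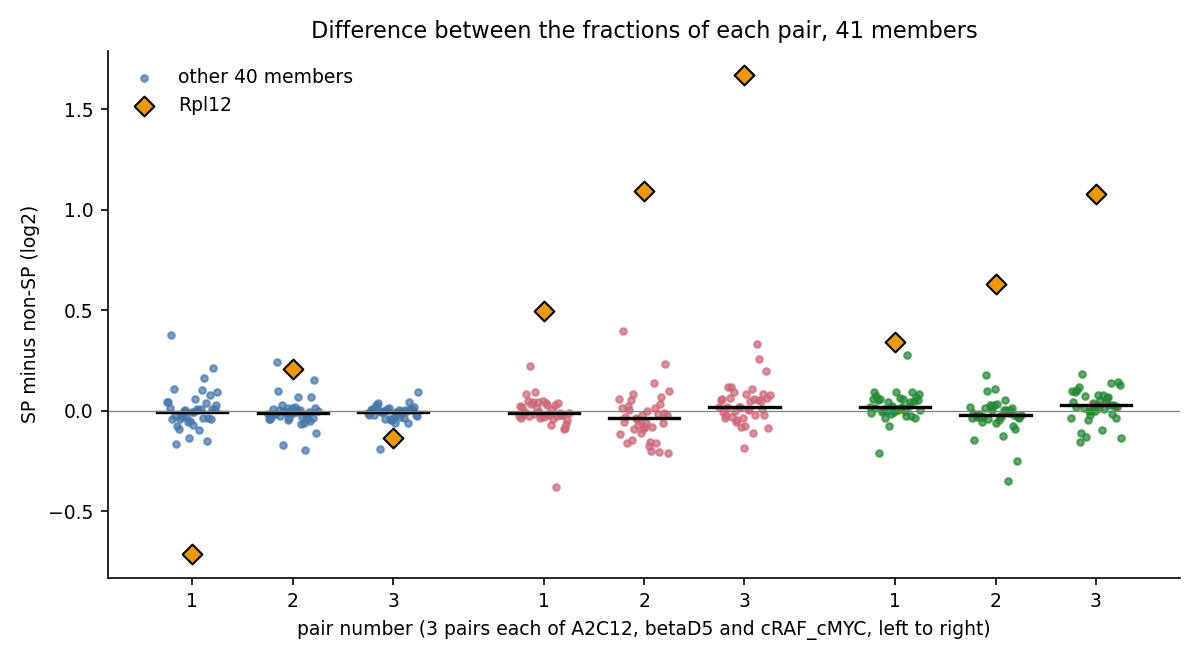
SP minus non-SP difference (log2) of the 41 tested members in each of the 9 pairs of arrays (points are genes, lines are the median of the 41, diamonds are Rpl12). The lines stay between -0.037 and 0.026, and Rpl12 stands above the other members in the pairs of betaD5 and cRAF_cMYC.

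Rpl12, which sits beside Rplp0 at the base of the stalk, was the member with the largest SP difference, and it too missed the threshold. The only set annotated to it alone gave log2 signals of 10.25, 9.45 and 8.74 in the non-SP and 10.74, 10.54 and 10.41 in the SP arrays of betaD5. In cRAF_cMYC the signals were 8.51, 9.39 and 9.41 in non-SP and 8.86, 10.02 and 10.49 in SP, and in A2C12 9.02, 8.46 and 8.61 in non-SP and 8.31, 8.67 and 8.47 in SP. All 3 SP arrays of betaD5 lay above its non-SP arrays, while the fractions overlapped in cRAF_cMYC and A2C12.

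The pair differences of Rpl12 were 0.50, 1.09 and 1.67 in betaD5, 0.34, 0.63 and 1.08 in cRAF_cMYC, and -0.71, 0.21 and -0.14 in A2C12. SP was thus higher in 7 of 9 pairs. The mean difference in betaD5 was 1.09 (SE 0.39, limma adjusted p = 1.0), or 2.12-fold, and with the block its adjusted p was 0.298. Without the pairs betaD5 1 and cRAF_cMYC 3 it was 1.38, with an adjusted p of 0.0548 with the block, the lowest of 40 alternatives, over which the value ran from 0.72 to 1.47 and the adjusted p up to 1.0. In cRAF_cMYC the difference was 0.68, or 1.61-fold (adjusted p with the block 0.494), and 0.48 without the same pairs. The mean of the 3 lines was 0.52 (paired 95% interval 0.24 to 0.80, adjusted p with the block 0.212). The test of the difference between the SP effects of betaD5 and A2C12 gave 1.30 (adjusted p with the block 0.907).

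The probe sets that Rpl12 shares with other annotated genes did not show this difference. Of these, 1 is annotated to 2 genes and 1 to 4 genes, with mean signals of 14.25 and 14.37. Their pair differences in betaD5 were 0.01, -0.07 and 0.02 for the former and -0.04, 0.01 and -0.03 for the latter. In cRAF_cMYC they were 0.08, 0.00 and 0.02, and 0.02, 0.04 and 0.00. The sets that name Rpl12 therefore disagreed, and the signal of the shared sets can come from any of their genes.

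A similar pattern over the pairs stood in a few other dim sets, which were chosen after their values were seen. The dimmest of 6 sets of Rps10 (mean 7.80) had pair differences of 0.09, 0.93 and 1.14 in betaD5, 0.33, 0.24 and 0.71 in cRAF_cMYC, and -0.22, 0.09 and 0.07 in A2C12. That of Rps9 (mean 6.56) had 0.59, 1.10 and 0.59, then 0.09, 0.28 and 0.49, then -0.12, -0.10 and -0.13, and the fifth of 6 sets of Rps24 (mean 9.27) had -0.01, 0.72 and 0.90, then 0.05, 0.05 and 0.41, then -0.10, 0.28 and 0.03. Other dim sets did not share this pattern, and the dimmest of 3 sets of Rps3 (mean 6.31) had -0.24, -0.24 and -0.64 in betaD5, -0.51, 0.04 and -0.83 in cRAF_cMYC, and -0.31, 0.56 and 0.17 in A2C12. Over all 21 other sets of the members at or below a mean of 13, the SP difference in betaD5 was above 0 in 15, with a median of 0.08 and a range of -0.37 to 0.76. The adjusted p values with the block in betaD5 were 0.26 for Rps10, 0.26 for Rps9 and 0.282 for Rps24, over 20967 probe sets tested 1 by 1, where 0% of all sets and 0 of 88 sets of the members were called. The chosen bright sets of Rps10, Rps9 and Rps24 differed in the pairs of betaD5 by -0.21 to 0.08.

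The 3' to 5' signal ratio of Gapdh and Actb, a measure of RNA and cDNA length, also changed between fractions in some pairs. SP minus non-SP it was -0.10, 0.77 and 0.86 (log2) in betaD5, 0.12, -0.49 and -0.06 in cRAF_cMYC, and 0.23, -0.02 and 0.06 in A2C12. It was thus raised in the SP arrays of betaD5 2 and 3, where the dim sets of Rpl12, Rps10, Rps9 and Rps24 were high as well. It was not raised in cRAF_cMYC 3, where these sets were also high, nor in betaD5 1, where Rpl12 stood at 0.50 and the Rps9 set at 0.59. With this ratio as a covariate beside the block, the difference of Rpl12 in betaD5 was 0.82 (adjusted p 0.291). Its further part in these differences was not tested. Over the 31 other sets of the members with a mean above 13 the SP differences of the 3 lines ran from -0.11 to 0.13. Over the 110 shared sets the medians were -0.008 in A2C12, 0.002 in betaD5 and 0.003 in cRAF_cMYC. They ranged from -0.28 to 0.86 in betaD5, 56 of 110 above 0, and from -0.17 to 0.87 in cRAF_cMYC, 57 above 0. A dim shared set naming Rpl30 (mean 7.76), also chosen after its values were seen, was high in betaD5 2 and 3 and cRAF_cMYC 3. Its pair differences were -0.16, 1.4967 and 1.07 in betaD5 and -0.26, 0.38 and 0.94 in cRAF_cMYC. In A2C12 they were -0.16, -0.14 and -0.21.

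**Figure D3:**
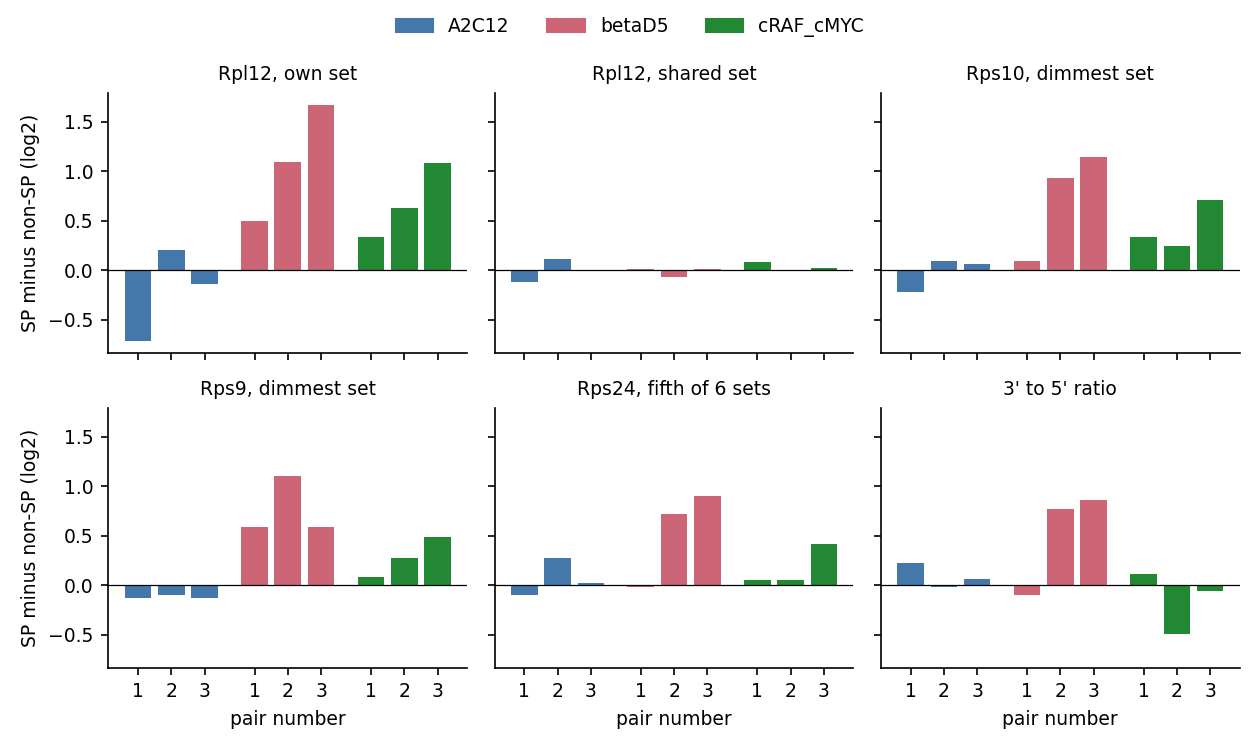
SP minus non-SP difference (log2, bars) by pair for the set annotated to Rpl12 alone, a shared Rpl12 set, dim sets of Rps10, Rps9 and Rps24, and the 3' to 5' ratio of Gapdh and Actb. The dim sets are high in betaD5 2 and 3 and in cRAF_cMYC 3, and those of Rpl12 and Rps9 also in betaD5 1 (0.50 and 0.59), while the shared Rpl12 set stays within 0.12 of 0 and the ratio is high in betaD5 2 and 3.

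The lines themselves differed far more than the fractions. Among non-SP arrays, 31 of 41 members were higher in betaD5 than in A2C12, where 55.2% of all genes were called, 53.1% higher and 2.11% lower. All 41 differences lay above 0, with a median of 0.52, or 1.44-fold. The median over all genes was 0.71, or 1.64-fold, and 32 of 41 members lay below it. The sets of the 33 bright members lay near the top of the scale, and how far their signal follows the RNA there was not tested. This limit holds for every comparison of the members with all genes between lines below. In 38 of the 41 tested members every betaD5 non-SP array lay above every A2C12 non-SP array, as in 68.3% of all genes tested. Without the pairs betaD5 1 and cRAF_cMYC 3, 19 members were called beside 53.6% of all genes.

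Between cRAF_cMYC and A2C12, 15 of 41 members were called, all higher in cRAF_cMYC, where 28.5% of all genes were called and 26.3% were higher. The members' median was 0.37, or 1.29-fold, against 0.45 over all genes, with 29 of 41 members below the latter. In 24 of 41 members every cRAF_cMYC array lay above every A2C12 array, as in 38.3% of all genes tested. The count moved with single libraries, to 28 without the non-SP array of cRAF_cMYC 1 and to 5 or 6 without that of cRAF_cMYC 2 or 3. It was 9, 9 and 8 without that of A2C12 1, 2 and 3. The shares of all genes in these fits are not given here, so a move particular to the members cannot be read from these counts. Without both named pairs the count was 5, beside 24.1% of all genes. Between betaD5 and cRAF_cMYC 0 members were called, where 0% of all genes were called, and the median was 0.18 against 0.27 over all genes. At an unadjusted p under 0.05, 2 members (Rps25 and Rpl39) and 689 genes passed there. Without both named pairs the members called were again 0, while 11.2% of all genes were called. The same comparisons among SP arrays called 31 and 19 members against A2C12, beside 57.2% and 31.8% of all genes.

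These directions depend on how arrays are scaled to each other, since the median of all genes moved with the lines as well. After quantile normalization the median over all genes was 0.04 and 0.03 in betaD5 and cRAF_cMYC against A2C12, and the members' median was -0.04 and -0.03, with 19 and 17 of 41 above 0. Of 8 members then called in betaD5, 5 were higher (Rps25, Rps14, Rps29, Rpl41 and Rpl39) and 3 lower (Rpl10a, Rpl37a and Rps24), beside 28.8% of all genes. Of 5 called in cRAF_cMYC, 4 were higher (Rps25, Rps14, Rpl41 and Rps29) and Rps24 was lower, beside 22.4%. With arrays centred on their medians the members' median was -0.17 and -0.01, with Rps25 alone called in betaD5 (23.8% of all genes) and Rps25 and Rps14 in cRAF_cMYC (19% of all genes). A higher level of ribosomal protein genes as a group in betaD5 or cRAF_cMYC therefore holds, of these scales, on the deposited one alone.

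Markers of stroma differed between the lines as well. The mean log2 signal of the 7 stromal markers was 10.70 to 10.96 in the A2C12 arrays, 11.90 to 13.12 in betaD5 and 12.20 to 13.35 in cRAF_cMYC. These are deposited signals, on which the non-SP median of all genes lay 0.71 and 0.45 above A2C12. The markers differed unequally: Dcn had means of 9.18, 12.72 and 13.16 in the same order, and Vim 14.04, 14.47 and 14.23. The mean of the 6 epithelial markers was 7.43 to 8.13, 7.68 to 8.33 and 7.23 to 7.90 in the same order, with Cdh1 and Cldn4 below the filter. Its members went different ways. Cdh1, Krt8 and Krt19 (11.71, 11.35 and 10.71) were lower in both other lines than in A2C12. Epcam (8.19, 9.43 and 9.03), Krt18 and Cldn4 were higher. The 5 leukocyte markers had 5.72 to 6.05, 6.47 to 6.83 and 5.77 to 6.56, and the 3 endothelial markers 5.30 to 5.73, 5.79 to 6.19 and 5.10 to 5.86. The part of these markers in the differences of the members was not tested.

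**Figure D4:**
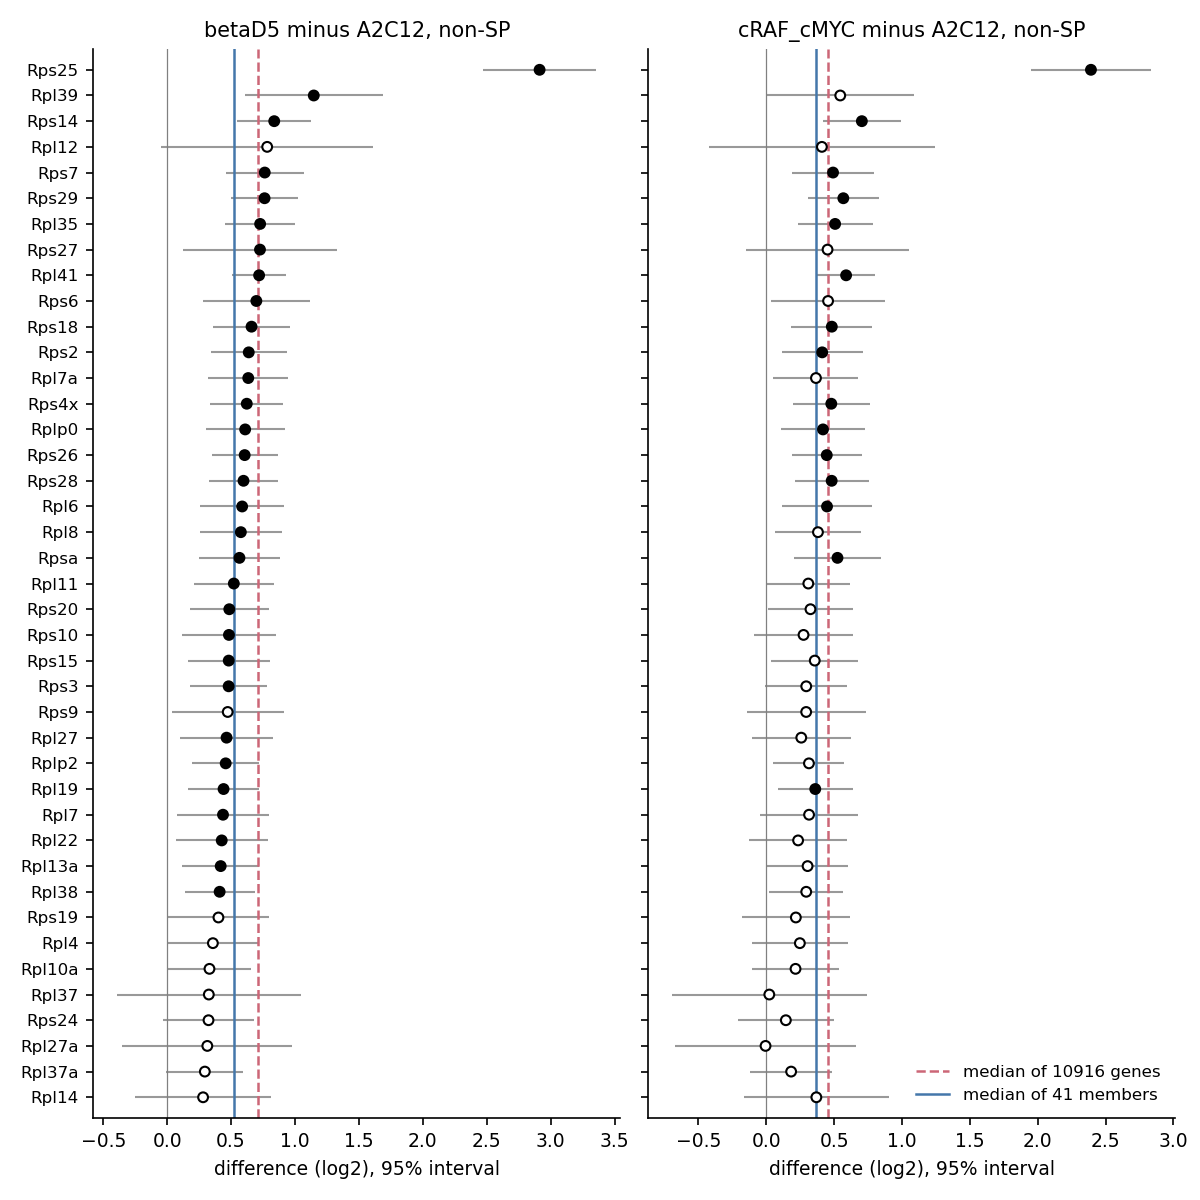
Difference of each tested member between lines among non-SP arrays (log2, with 95% interval), betaD5 minus A2C12 on the left and cRAF_cMYC minus A2C12 on the right, with filled points for members called at an adjusted p under 0.05. Most members lie to the left of the dashed median of 10916 genes, and Rps25 lies far to the right in both panels.

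Rps25 departed from the other members in both comparisons. It is a small-subunit protein known for its role in initiation at viral and cellular internal ribosome entry sites. Its log2 signals were 9.97, 9.79 and 9.82 in the non-SP and 10.13, 9.59 and 9.82 in the SP arrays of A2C12. In betaD5 they were 13.03, 12.67 and 12.61 in non-SP and 12.65, 12.50 and 12.95 in SP, and in cRAF_cMYC 11.95, 12.33 and 12.47 in non-SP and 12.23, 11.98 and 12.54 in SP. No array of A2C12 came near any array of the other lines, and the fractions overlapped in each line.

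The difference of Rps25 from A2C12 was 2.91 (SE 0.21, limma adjusted p = 4.39e-08) in betaD5, or 7.53-fold, and 2.39 (adjusted p = 5.78e-07) in cRAF_cMYC, or 5.25-fold. These values lay 2.39 and 2.03 above the median of the members, and the next member stood at 1.15 and 0.70. Rps25 was called in all 40 alternatives of both comparisons, at 2.16 to 2.99 in betaD5 and 1.91 to 2.54 in cRAF_cMYC. Without the pairs betaD5 1 and cRAF_cMYC 3 the values were 2.78 and 2.28. The SP differences were -0.01 in A2C12, -0.07 in betaD5 and -0.0005 in cRAF_cMYC.

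A probe set that Rps25 shares with 2 other annotated genes gave a smaller difference. Its signals were 13.50 to 13.83 in A2C12, 14.12 to 14.51 in betaD5 and 13.83 to 14.53 in cRAF_cMYC. It differed by 0.62 and 0.49 from A2C12, close to the members' medians of 0.52 and 0.37. Both sets that name Rps25 thus pointed the same way but disagreed in size, and the signal of the shared set can come from any of its genes.

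**Figure D5:**
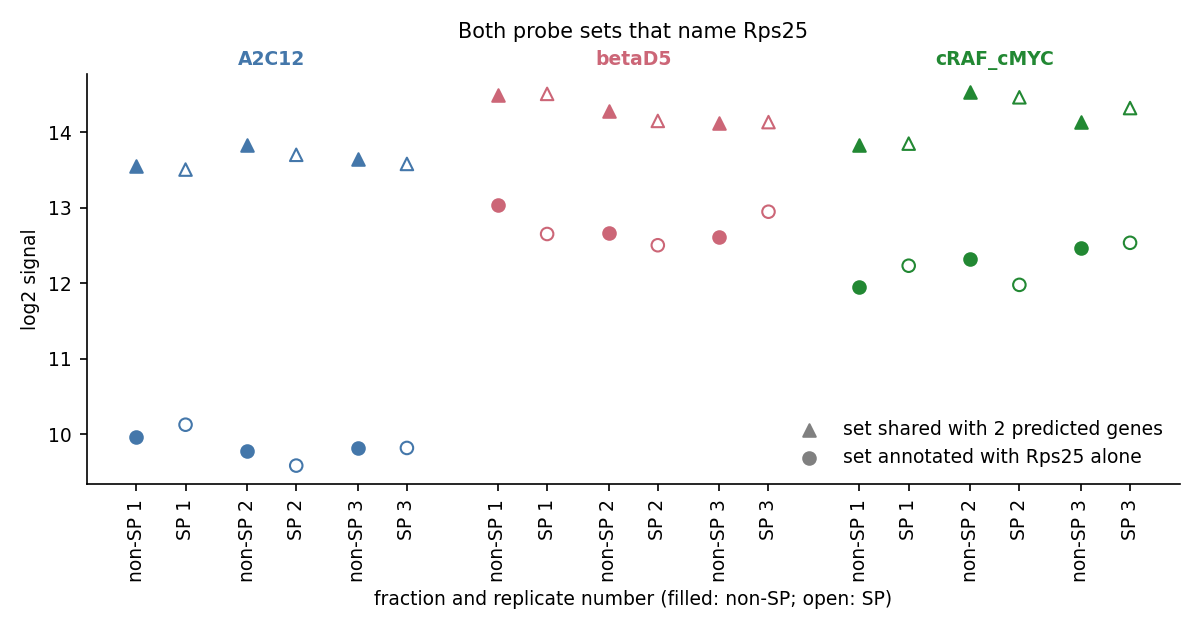
Log2 signal of the probe set annotated to Rps25 alone (circles) and of the set it shares with 2 predicted genes (triangles) on the 18 arrays, filled for non-SP and open for SP. The circles stand between 9.59 and 10.13 in A2C12 and between 11.95 and 13.03 in the other lines, while the triangles differ far less.

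After Rps25, the largest difference in betaD5 was that of Rpl39, a small protein that lines the exit tunnel of the large subunit. Its set, with a mean of 7.12, read 6.43, 6.66 and 6.62 in the non-SP arrays of A2C12, 7.50, 7.94 and 7.72 in betaD5 and 6.70, 7.50 and 7.15 in cRAF_cMYC. In betaD5 the arrays lay above those of A2C12 by 1.15 (SE 0.26, limma adjusted p = 0.00178), and in cRAF_cMYC by 0.55 (adjusted p = 0.116). The bright set that Rpl39 shares with another annotated gene differed by 0.47 and 0.34. In betaD5 minus cRAF_cMYC, Rpl39 differed by 0.60 (unadjusted p = 0.0313, adjusted p = 0.592).

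Rps14, whose loss in humans underlies a form of myelodysplasia, was next. Its non-SP signals were 13.86, 13.96 and 13.82 in A2C12, 14.81, 14.69 and 14.65 in betaD5 and 14.32, 14.76 and 14.68 in cRAF_cMYC. All arrays of both lines lay above those of A2C12, by 0.84 (SE 0.14, limma adjusted p = 0.00018) in betaD5 and 0.70 (adjusted p = 0.00157) in cRAF_cMYC. The call held in 40 of 41 alternatives in betaD5, with array-median centring (0.14, adjusted p 0.359) as the exception, and in all 41 in cRAF_cMYC.

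Rpl41, the shortest ribosomal protein, and Rps29, a zinc-binding protein of the small subunit, kept their direction against A2C12 on every scale tried. The non-SP signals of Rpl41 were 14.42, 14.48 and 14.55 in A2C12, 15.26, 15.17 and 15.18 in betaD5 and 14.96, 15.19 and 15.06 in cRAF_cMYC. Those of Rps29 were 14.00, 14.19 and 14.17, then 14.92, 14.86 and 14.87, then 14.43, 14.84 and 14.80. For both genes all 6 arrays outside A2C12 lay above the 3 of A2C12, and the array of cRAF_cMYC 1 was the lowest of the 6. Rpl41 was higher by 0.72 (SE 0.10) in betaD5 and 0.59 in cRAF_cMYC, and by 0.16 in both after quantile normalization. Rps29 was higher by 0.76 (SE 0.12) and 0.57, and by 0.21 and 0.18 after quantile normalization. With array-median centring neither was called in either line, at 0.02 and 0.21 for Rpl41 and 0.07 and 0.19 for Rps29. The remaining members named by the largest differences in betaD5 were Rps7 (0.76), Rpl35 at the exit of the tunnel (0.73) and Rps27 (0.73), all called. In cRAF_cMYC they were Rpsa (0.52), Rpl35 (0.51), Rps7 (0.49) and Rps18 (0.48), all called.

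At the other end of the range, 10 tested members were not called in betaD5 against A2C12. They were Rpl14, Rpl37a, Rpl27a, Rps24, Rpl37, Rpl10a, Rpl4, Rps19, Rps9 and Rpl12, and all but Rpl12 lay between 0.28 and 0.47. Rpl10a, a protein near the exit site of the ribosome, read 13.94, 14.08 and 14.10 in the non-SP arrays of A2C12, 14.59, 14.27 and 14.26 in betaD5 and 13.99, 14.46 and 14.32 in cRAF_cMYC. Rpl37a, a zinc-binding protein of the large subunit, read 14.36, 14.49 and 14.45, then 14.88, 14.69 and 14.62, then 14.44, 14.86 and 14.55. Their betaD5 arrays lay above those of A2C12 by small steps, and cRAF_cMYC overlapped A2C12. The differences in betaD5 were 0.33 (SE 0.15) for Rpl10a and 0.30 (SE 0.14) for Rpl37a on the deposited scale, and -0.23 and -0.26 after quantile normalization, where both were called lower.

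In cRAF_cMYC against A2C12 the 15 called members were, besides those named above, Rps28, Rps4x, Rpl6, Rps26, Rplp0, Rps2 and Rpl19, at 0.36 to 0.48. The 26 others lay between -0.01 for Rpl27a and 0.55 for Rpl39. Rps6 was among them, with non-SP signals of 9.77, 9.93 and 10.11 in A2C12, 10.73, 10.58 and 10.60 in betaD5 and 10.04, 10.52 and 10.61 in cRAF_cMYC. Its betaD5 arrays stood clear of A2C12, and the array of cRAF_cMYC 1 lay within the range of A2C12.

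The subunits were also read separately, without a test of the difference between them. In betaD5 against A2C12, 16 of 19 small-subunit and 15 of 22 large-subunit members were called, with median differences of 0.61 and 0.45, beside 55.2% of all genes and their median of 0.71. In cRAF_cMYC the counts were 10 of 19 and 5 of 22, with medians of 0.45 and 0.31, beside 28.5% of all genes and their median of 0.45, so that the large-subunit share lay below that background. For the mean SP difference the medians were 0.004 and -0.005, and 0 members of either subunit were called.

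By role, the stalk proteins Rplp0 and Rplp2 were higher in betaD5 than in A2C12 by 0.61 and 0.46, both called, while Rpl12 at 0.78 was not (SE 0.39, adjusted p = 0.0993). In cRAF_cMYC Rplp0 alone was called, at 0.42, beside 0.31 for Rplp2. Rpl11, which with Rpl5 and 5S RNA can bind Mdm2 and so stabilise p53, was higher by 0.52 in betaD5 (called) and stood at 0.31 in cRAF_cMYC. Of the 10 members whose human counterparts are mutated in Diamond-Blackfan anaemia, an inherited failure of red cell production, 8 were called in betaD5 (55.2% of all genes) and 4 in cRAF_cMYC (28.5% of all genes). Rps19, the gene most often mutated in it, was in neither count, at 0.40 (adjusted p = 0.0783) and 0.22. Rps4x, the X-linked small-subunit protein, was higher by 0.62 and 0.48, called in both lines, and Rps6 by 0.70 (called) in betaD5, with 0.46 in cRAF_cMYC. Rplp0, Rplp2, Rpl11, Rpsa and Rps4x lay below 0 in betaD5 after array-median centring, and Rplp2, Rpl11 and Rps6 after quantile normalization.

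The sets of Rpl22 disagreed in direction on the deposited scale, while after quantile normalization and array-median centring the brightest set too lay below 0 in betaD5, at -0.14 and -0.27. Rpl22 binds RNA outside the ribosome too and limits its paralog Rpl22l1. Its sets with means of 14.10 and 13.44 were higher in betaD5 than in A2C12, at 0.43 (adjusted p = 0.0434) for the former. The third set of Rpl22, with a mean of 9.67, had 10.11 to 10.54 in the A2C12 arrays and 8.90 to 9.87 in all others. That set was lower by 0.86 in betaD5 (adjusted p 0.007), and in cRAF_cMYC it stood at -0.63 (adjusted p 0.0598), the only one of 63 called sets of the members that was lower in betaD5, where 53.6% of all sets were called. Rpl22l1 was higher in betaD5 by 0.53 (adjusted p = 0.0487) and stood at 0.29 in cRAF_cMYC.

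The other sets of the members also lay mostly above 0 against A2C12. Over the 31 other sets of the members with a mean above 13 the median difference from A2C12 was 0.58 in betaD5, with a range of 0.1608 to 1.0049, and 0.38 in cRAF_cMYC. Over the 21 other sets at or below 13 it was 0.72, with a wider range of -0.86 to 1.35, and 0.43, and over the 110 shared sets 0.52 and 0.35.

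Other gene lists were read beside the members. Of 15 other TOP mRNA genes, some of which code for elongation and initiation factors, 11 were called in betaD5 against A2C12 and 4 in cRAF_cMYC, all higher. Among them were Eif3e (0.82 and 0.62), Nap1l1 (0.76 and 0.62), Eef1d (0.75 and 0.45) and Pabpc1 (0.74 and 0.57), each called in both. Fau, a fusion whose carboxyl part is a small-subunit protein, was higher by 0.82 and 0.60. Of 76 mitochondrial ribosomal protein genes, 38 and 12 were called, all higher, with medians of 0.63 and 0.34, below those of all genes (0.71 and 0.45). The counts of these lists stand beside the 55.2% and 28.5% of all genes called in the same comparisons, so that the mitochondrial list lay under that background in both and the TOP list near it in cRAF_cMYC. In none of these lists was a gene called between SP and non-SP.

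Of 6 chaperones and assembly factors of ribosomal proteins, 4 were called in betaD5 and 2 in cRAF_cMYC, all higher, with medians of 0.83 and 0.54. Of 9 host transcripts of small nucleolar RNAs, 6 and 1 were called, all higher, with medians of 0.87 and 0.34. These counts stand beside 55.2% and 28.5% of all genes. Heatr3, which brings Rpl5 into the nucleus, was higher by 2.23 (limma adjusted p = 8.9e-05) in betaD5 and 1.71 (adjusted p = 0.0016) in cRAF_cMYC. Ltv1, an assembly factor of the small subunit, was higher by 1.25 and 0.9985, and Rrs1 (0.95) and Bccip (0.72) were higher in betaD5, with 0.67 and 0.41, not called, in cRAF_cMYC. Of 12 genes of mTOR signalling and TOP control, 7 were higher in betaD5, a share near the 55.2% of all genes, among them Rheb (1.45), which activates mTOR, and Larp1 (0.80). In cRAF_cMYC 2 of the 12 were higher, Rheb (0.89) and Larp4 (0.73), and 1 was lower, Akt1s1, an inhibitor of mTOR (-0.92). There 28.5% of all genes were called.

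Between the fractions, the 9 host transcripts of small nucleolar RNAs all lay above 0 in the mean of the 3 lines, beside 21 of 41 members and 54.3% of all genes. Their median was 0.15 against 0.0005 for the members and 0.009 for all genes, with Snhg12 at 0.51, Snhg7 at 0.32 and Snhg1 at 0.29. None of the 9 was called, with or without the block. For the other TOP mRNA genes the median was 0.006 and for the mitochondrial ribosomal protein genes -0.02. The chaperones of ribosomal proteins had a median of 0.14, near that of the host transcripts, with 4 of 6 above 0. The genes of mTOR signalling and TOP control had 0.05, with 10 of 12 above 0.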

How the data were processed

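Each sample was hybridised to 1 Affymetrix 3' array. The deposited values are log2 signals, 1 for each of 45101 probe sets, made with Affymetrix Expression Console per the submitters' processing notes; its version, summary algorithm and normalization are not given in the sources used here. No further scaling was applied. The 64 control probe sets and 932 with several symbols were left out, and 34741 of 34945 sets matched a current RefSeq symbol. Per gene the set with the highest mean was kept, the 40% of genes with the lowest mean (log2 signal under 6.53) were dropped, and 10916 genes were tested.

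R 4.3.3 with limma 3.58.1 fitted 6 group means to 18 arrays (lmFit, eBayes with trend, two-sided, Benjamini-Hochberg over all genes, threshold 0.05). A second fit had each numbered pair within a line as a block. Same-numbered arrays deviated together in all 9 pairs (r 0.426 to 0.953), so the numbers were taken as pairs, although betaD5 3 matched another number slightly better (0.601 against 0.684). Replicates may be technical, and p-values measure their spread alone. The number of arrays limits the precision.

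Alternatives were other scalings, filters, probe sets and trends, the 3' to 5' ratio, a random block (correlation 0.841), each array or pair left out, and the pairs betaD5 1 and cRAF_cMYC 3 left out. Centring on the members and testing every set were chosen after seeing the data. The fits were tested on simulated data. The members and lists were chosen with earlier results of these data known. Members were named as the up to 8 largest called differences in each direction, or the 5 smallest p values of either fit where none was called, and by role or by the 3 largest and smallest SDs. The dim sets and the promoters shown were chosen after their values were seen.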

Additional observations from a re-analysis of the deposited data

Results flagged for a closer look

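The SP differences of 4 of the 41 tested members pointed one way in every pair of a line and the other way in another line. The same count was not made over all genes. It is therefore not known whether the pattern is more frequent among the members, and the count itself is no test. Rpl7a averaged -0.0707 in A2C12 and -0.0755 in betaD5, below 0 in all 6 pairs, and 0.0202 in cRAF_cMYC, above 0 in all 3. Rpl8 did the same with smaller values, at -0.034 in A2C12, -0.0292 in betaD5 and 0.0198 in cRAF_cMYC. Rpl27a averaged 0.0629 in betaD5 and -0.1276 in cRAF_cMYC, and Rps27, read by a dim set, -0.0854 in A2C12 and 0.0619 in cRAF_cMYC. The tests of the differences between lines passed the threshold for none of them. With the block these differences were 0.19 (SE 0.14, limma adjusted p = 1.0) for Rpl27a, 0.09 (SE 0.05, adjusted p = 0.973) for Rpl7a in cRAF_cMYC against A2C12, 0.05 (SE 0.05, adjusted p = 0.974) for Rpl8 in the same comparison, and 0.15 (SE 0.15, adjusted p = 0.974) for Rps27.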

How the results depend on the processing

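The count of members called between SP and non-SP was 0 in every line, in the mean and in every difference between lines under all alternatives, the replicate block and each left-out array or pair included. The replicate block changed no call. Pairing does not apply within a line comparison. A random block gave 34 and 17 calls against A2C12, beside 53.2% and 26% of all genes. Without single arrays or pairs the SP medians ran from -0.0224 to 0.0037 in A2C12, -0.0694 to 0.0579 in betaD5, -0.1327 to 0.1299 in cRAF_cMYC and -0.0468 to 0.0432 in the mean. Calls ran from 22 to 38 in betaD5 against A2C12 and from 5 to 33 in cRAF_cMYC. The shares of all genes in these fits are not given here, so a move particular to the members cannot be read from these counts. Medians ran from 0.4357 to 0.5699, 0.2499 to 0.4989 and, for betaD5 minus cRAF_cMYC, 0.0259 to 0.2712.

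The causes of the following changes were not tested. The SP median of A2C12 was -0.0023 under quantile normalization, -0.0112 with array-median centring, -0.0103 without _x_at and _s_at sets, -0.0123 with second sets and -0.0012 centred on the members, with or without the block. Array-median centring gave 0.0503 in betaD5, 0.0438 in cRAF_cMYC and 0.0276 in the mean. Calls in betaD5 and cRAF_cMYC against A2C12 were 8 and 5 under quantile normalization, beside 28.8% and 22.4% of all genes. Array medians gave 1 and 2 (23.8% and 19%), and centring on the members 6 and 2 (26.4% and 18.4%). Without pairs betaD5 1 and cRAF_cMYC 3 they were 19 and 5 (53.6% and 24.1%). Centred on the members without them, they were 11 and 2 (43.3% and 26.7%). Second sets, with fewer genes, gave 13 and 2, where 2760 and 1140 of all genes were called. Every probe set gave 63 and 24, beside 53.6% and 24.1% of all sets. Without trend, 7 members and 3072 of all genes were called in cRAF_cMYC. Centred on the members without these pairs, 1 of 41 members, Rpl39, was called in betaD5 minus cRAF_cMYC, beside 22.9% of all genes. The line medians were -0.0356 and -0.0261 (quantile), -0.1732, -0.0125 and -0.1365 for betaD5 minus cRAF_cMYC (array medians), 0.0058 and 0.0065 (members), and 0.0176 and 0.0057 (members, without these pairs).

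In betaD5 minus A2C12 several members turned to below 0. Quantile normalization gave Rplp2 -0.0775, Rpl11 -0.0356, Rps6 -0.0305, Rpl22 -0.1367, Rpl37a -0.2555 and Rpl10a -0.2291. Array-median centring gave Rplp0 -0.0845, Rplp2 -0.2368, Rpl11 -0.1732, Rpsa -0.1293, Rps4x -0.072 and Rpl22 -0.2679. Centring on the members gave Rplp2 -0.0578, Rpl22 -0.0889, Rpl37a -0.221 and Rpl10a -0.1847, and without these pairs Rpl22 -0.1103, Rpl37a -0.199 and Rpl10a -0.1961. Of all settings of named members, 7269 stayed on their side of the threshold, 172 lost and 29 gained a call, and 19 reversed.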
